A study of Mus musculus with 18 samples.

Results

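WNT signalling was described here through 49 genes: ligands and the acyltransferase of their secretion, receptors, cytoplasmic and nuclear signal carriers, feedback inhibitors and other known targets. Members were every gene on the array whose annotated symbol, current or older, was in this list. They had 89 of the 46237 probes. A probe counted as detected on an array where its deposited detection p-value was below 0.05. A gene was kept where some probe was detected on at least 3 of the 18 arrays, which held for 29 genes. The 29 genes had 43 of the 26676 probes that passed the same filter.

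The 18 arrays carried RNA from thymocytes of C57Bl/6N mice aged 4 to 6 weeks, with 200 ng of total RNA per labelling. The 6 groups of 3 arrays were double-positive (DP) thymocytes of conditional knockout (cKO) and wild-type (wt) mice, CD4 single-positive (CD4 SP) thymocytes of cKO and wt mice, and CD8 single-positive (CD8 SP) thymocytes of cKO and wt mice. In cKO mice FoxN1-Cre deleted exon 3 of Gpr177, now named Wls, whose protein carries WNT ligands to the cell surface for release. Because FoxN1-Cre is active in the epithelium of the thymus, the sorted thymocytes were not themselves the deleted cells. The arrays therefore do not check the deletion, and Wls was detected on all 18 of them and passed no genotype test. The labels do not say whether the wt mice carried Cre, nor whether the 3 arrays of a group came from separate mice. The p-values measure the spread between these samples, which may be partly technical.

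In canonical WNT signalling a secreted ligand binds a Frizzled receptor together with LRP5 or LRP6. This stops a complex of APC, axin, GSK3 and casein kinase from marking beta-catenin for destruction. Beta-catenin then enters the nucleus, joins TCF/LEF factors and switches on target genes, several of which encode inhibitors of the pathway itself. In the thymus, epithelial cells and other stroma are known sources of WNT ligands, and TCF/LEF factors are needed for thymocyte development.

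Read by its brightest tested probe, no WNT gene passed the test between cKO and wt in any thymocyte population. Between populations 2 genes passed it in cKO mice and none in wt mice, where a dimmer Lrp5 probe passed. Axin2, a negative-feedback target of beta-catenin, was higher in cKO CD4 SP than in cKO DP thymocytes, where 1 of 3 arrays detected it. Gsk3b, a kinase of the beta-catenin destruction complex, was lower in cKO CD8 SP than in cKO DP thymocytes. In wt mice both differences had the same sign and missed the threshold, that of Gsk3b with a limma adjusted p of 0.0676. A difference between genotypes in these population changes was not shown for either gene. Ctnnb1, which encodes beta-catenin, kept group means between 9.85 and 10.04 in all 6 groups. Levels are normalized log2 intensities from limma's neqc, and a test is limma's moderated test with Benjamini-Hochberg adjustment over all 26676 probes and a threshold of 0.05.

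Replicate arrays correlated at 0.848 to 0.908 and any 2 arrays at 0.755 or more. The highest correlation between groups was not computed, so grouping of the arrays by sort was not tested. The Cd8b1 probe averaged 8.37 in cKO and 7.87 in wt CD4 SP, against 11.02 in cKO and 10.91 in wt CD8 SP thymocytes. Of the 3 sort markers Cd4, Cd8a and Cd8b1, 1 passed higher and 1 lower in CD4 SP against CD8 SP in each genotype. Their differences ran from -3.05 to 0.98 in wt and from -2.65 to 1.17 in cKO, and in each genotype 1 of the 3 did not pass. Rag1, a recombinase gene of the DP stage, averaged 7.18 in cKO and 7.24 in wt CD4 SP, against 9.97 in cKO and 9.85 in wt CD8 SP thymocytes. The CD8 SP sort thus carried more Rag1 transcript than the CD4 SP sort. Of 4 measured DP-stage markers, 2 passed lower in CD4 SP than in CD8 SP in each genotype. The 4 differences ran from -2.99 to -0.168 in wt and from -4 to -0.0812 in cKO. The part of DP-stage transcript in the CD8 SP results was not tested. Array median intensities lay between 132.6 and 273.4, and the group means were 181.6 for cKO DP, 169.0 for wt DP, 220.1 for cKO CD4 SP, 172.7 for wt CD4 SP, 253.0 for cKO CD8 SP and 221.1 for wt CD8 SP. Of 13 markers of thymic epithelium and stroma 6 were kept (Psmb11, Ccl25, Aire, Pdgfra, Col1a1 and Pecam1), while Foxn1, Krt5, Krt8, Krt14, Epcam, Cldn4 and Col3a1 were not.

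Of the 29 genes, 13 were detected on all 18 arrays, or 44.8%, against 43.6% of the 14165 gene symbols with a tested probe. They were the receptors Fzd4, Fzd5, Fzd6, Lrp5 and Lrp6, the destruction complex genes Axin1, Gsk3b and Csnk1a1, the nuclear genes Ctnnb1, Bcl9 and Pygo2, and the targets Ccnd1 and Ephb2. Another 7 genes were detected on under 10 arrays, or 24.1%, against 21.8% of all genes. The median level of the 29 genes was 5.94, against 6.20 for all genes with a tested probe. Between 16 and 18 of the 29 genes were detected on all 3 arrays of a group.

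Of the 20 genes not kept, 15 were detected on no array and 5 on 1 or 2 arrays. The 15 were the ligand Wnt5b, the receptors Fzd1, Fzd2, Fzd8 and Fzd9, the adaptor Dvl2, the feedback genes Notum, Bambi and Apcdd1, and the targets Sp5, Lgr5, Ephb3, Tnfrsf19, Prox1 and Wisp1, which the array annotation names Ccn4. Wnt4, Dvl1 and Jup were each detected on 1 array, a DP array of cKO mice. Wnt10b and Ctnnbip1 were detected on 2 arrays, just short of the filter, while Wnt10a, at 3 arrays, and Nkd2 and Znrf3, at 4 arrays each, lay just inside it. A probe without detection gives only an upper bound on its transcript.

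**Figure D1:**
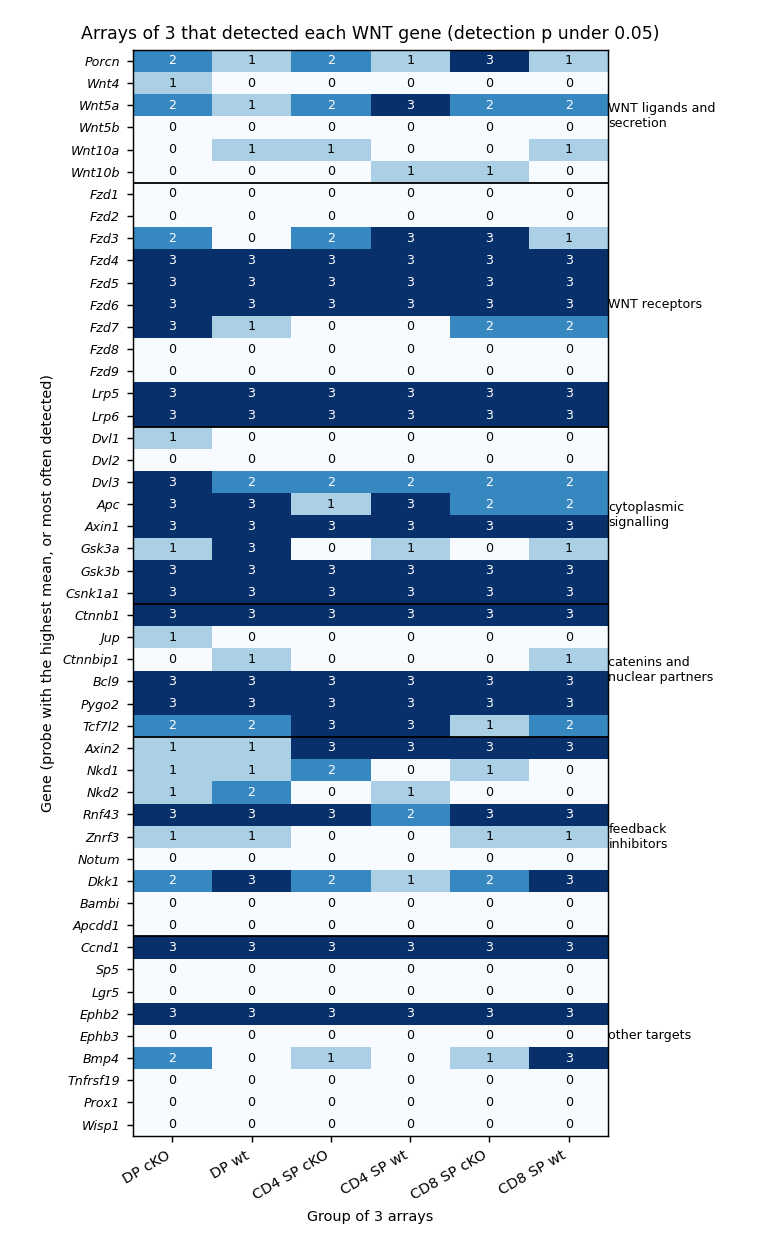
Number of arrays, of 3 per group, on which each of the 49 WNT genes had a detection p-value under 0.05, with genes in rows by role and the 6 groups in columns. The 13 genes detected on all 18 arrays show 3 in every column, and 15 genes show 0 in every column.

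Among ligands and secretion genes, Porcn, which attaches the lipid that WNT ligands need for release, was detected on 10 arrays, and the noncanonical ligand Wnt5a on 12. Porcn had group means between 5.28 and 5.71, and Wnt5a between 5.14 and 5.51. Wnt10a, a canonical ligand, was detected on 3 arrays of different groups, with means between 4.45 and 4.92. None of the 3 passed a test in any comparison, and all of these levels lay below the median of the 29 genes.

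Among the receptors, Fzd4, Fzd5 and Fzd6 were detected on every array, with single-array values of 5.89 to 7.29, 5.52 to 7.50 and 5.54 to 7.26. Fzd7 was detected on 8 arrays, 3 of them cKO DP, and on no CD4 SP array. The Fzd7 mean was 4.77 in cKO and 4.49 in wt CD4 SP thymocytes, against 5.31 in cKO and 4.87 in wt DP thymocytes. The coreceptor Lrp6 had group means between 6.67 and 7.07. Its partner Lrp5 averaged 7.06 in cKO and 6.94 in wt CD4 SP thymocytes, against 6.28 in cKO and 6.17 in wt DP thymocytes. No receptor passed a test with its brightest probe in the 11 comparisons.

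Fzd3, a receptor also used in planar polarity, was the member with the smallest p between cKO and wt in DP and in CD8 SP thymocytes, and missed the threshold in both. In DP thymocytes Fzd3 had 4.81, 5.28 and 6.33 in cKO, against 4.50, 4.95 and 4.55 in wt, where no array detected it. The difference was 0.81 ± 0.41 (SE, 3 arrays each, 95% interval -0.05 to 1.66, limma adjusted p = 0.607). With wt DP raised to the lowest detected values the estimate was 1.5-fold, which sets no lower limit on the true difference. In CD8 SP thymocytes Fzd3 had 5.97, 6.23 and 5.70 in cKO, against 5.85, 5.05 and 4.44 in wt. The values overlapped in both populations, and the CD8 SP difference was 0.85 ± 0.41 (limma adjusted p = 1). In CD4 SP thymocytes, with 5.01, 5.70 and 6.27 in cKO against 5.92, 5.91 and 5.53 in wt, the difference was -0.13 ± 0.41.

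Not 1 of the 29 genes passed the test between cKO and wt DP thymocytes, where 0.00375% of all tested probes did, a single probe. At an unadjusted p under 0.05 the count was also 0, against 8.59% of all probes. The median difference of the 29 genes was 0.13, against 0.03 over all tested probes, and 1 gene, Gsk3b, had values that did not overlap, or 3.45% of the genes against 13.9% of all probes. After Fzd3 the smallest p belonged to Bmp4, a growth factor that is a known WNT target, and Bcl9, a cofactor of beta-catenin. Bmp4 had 5.70, 5.60 and 4.68 in cKO DP, against 4.32, 4.94 and 4.90 in wt DP, where no array detected it. Bcl9 had 6.83, 7.50 and 7.45 in cKO DP, against 6.01, 6.65 and 7.23 in wt DP. Both pairs of groups overlapped, with differences of 0.61 ± 0.32 for Bmp4 and 0.63 ± 0.35 for Bcl9 (limma adjusted p = 0.623 and 0.649). With wt DP raised to the lowest detected values the Bmp4 estimate was 1.34-fold. The 3 further tested probes of Bcl9 differed by -0.26 to -0.04 in the same comparison. The summed normalized intensity of the 6 epithelial and stromal markers was 584.9 to 688.2 in cKO DP, against 443.5 to 497.6 in wt DP. Its part in the DP differences was not tested. The sum was 489.2 to 818 in cKO CD4 SP, against 534.9 to 761.2 in wt CD4 SP. In CD8 SP it was 514.6 to 617.9 in cKO, against 596.2 to 843.1 in wt. None of the 6 markers passed the test between cKO and wt in any population.

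In CD4 SP thymocytes 0 of 29 genes passed the test between cKO and wt, where 0% of all tested probes did. Unadjusted p-values under 0.05 were found for 4 genes, or 13.8%, against 7.64% of all probes. Ephb2, an ephrin receptor gene and known WNT target, had 6.62, 6.94 and 7.0 in cKO, against 6.26, 5.45 and 6.50 in wt. All 3 cKO values lay above all 3 wt values, and the difference was 0.78 ± 0.28 (95% interval 0.20 to 1.37, limma adjusted p = 0.547). Axin2 had 6.98, 6.19 and 7.22 in cKO CD4 SP, against 6.25, 5.16 and 6.05 in wt CD4 SP thymocytes. The lowest cKO value lay below the highest wt value, and the difference was 0.98 ± 0.45 (95% interval 0.03 to 1.92, limma adjusted p = 0.636). Fzd5 had 7.13, 7.22 and 6.56 in cKO CD4 SP, against 5.52, 6.24 and 6.76 in wt CD4 SP thymocytes. These groups also overlapped, with a difference of 0.80 ± 0.34 (limma adjusted p = 0.6), while the 2 other tested probes of Fzd5 gave -0.38 and 0.10.

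The fourth gene, Gsk3b, had 7.20, 7.19 and 7.38 in cKO CD4 SP, against 7.69, 7.99 and 7.96 in wt CD4 SP thymocytes. Its values did not overlap, and the difference was -0.62 ± 0.29 (limma adjusted p = 0.644). Groups without overlap were counted for 3 of 29 genes, or 10.3%, against 11.9% of all probes. The third of them after Ephb2 and Gsk3b was Znrf3, a ligase gene whose protein removes Frizzled receptors, which no CD4 SP array of either genotype detected, so its values there were background in both groups.

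In CD8 SP thymocytes 0 of 29 genes passed the test between cKO and wt, where 0% of all probes did, and no gene had groups without overlap, against 8.88% of all probes. No gene had an unadjusted p under 0.05, against 4.55% of all probes. Gsk3b had 6.92, 5.87 and 7.23 in cKO CD8 SP, against 7.10, 7.35 and 7.36 in wt CD8 SP thymocytes. The difference was -0.59 ± 0.29 (95% interval -1.21 to 0.02, limma adjusted p = 1). One cKO array, number 2, lay far below the other 5, and without it the difference was -0.19. Ccnd1, the cyclin D1 gene and a WNT target in other tissues, had 6.20, 5.72 and 7.22 in cKO CD8 SP, against 6.85, 6.71 and 7.30 in wt CD8 SP thymocytes. These groups overlapped, with a difference of -0.57 ± 0.35 (limma adjusted p = 1).

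**Figure D2:**
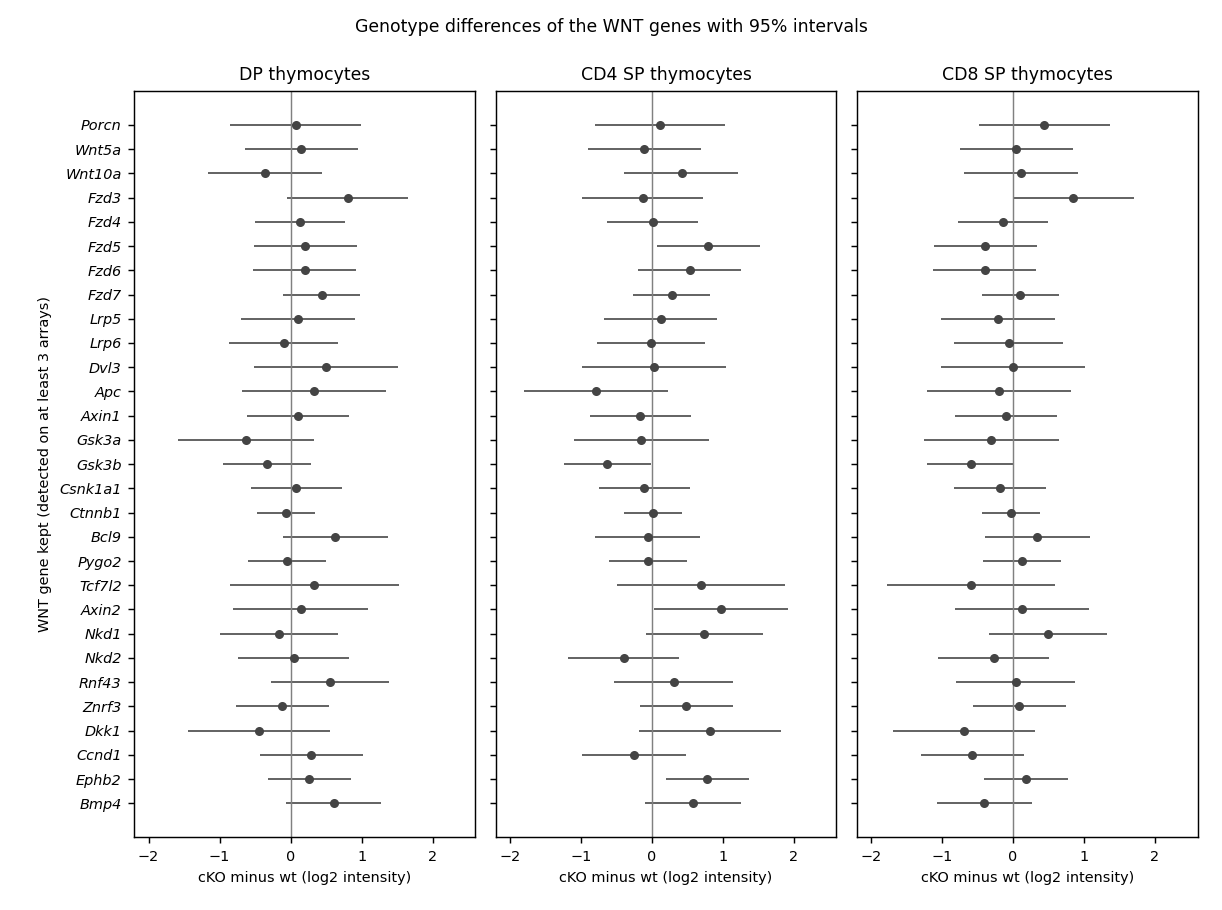
Difference between cKO and wt (horizontal axis, log2 intensity) with its 95% interval for the 29 WNT genes in rows, in DP, CD4 SP and CD8 SP thymocytes. None passed the adjusted threshold, and the narrowest interval in each panel is that of Ctnnb1.

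Averaged over the 3 populations, 0 of 29 genes passed the test between cKO and wt, where 0% of all tested probes did. The smallest p was that of Gsk3b, lower in cKO by -0.52 ± 0.17 on the log2 scale (95% interval -0.87 to -0.16, limma adjusted p = 0.281). Its mean in cKO lay below its mean in wt in each population, with 7.84 in cKO DP and 8.17 in wt DP, 7.26 in cKO CD4 SP and 7.88 in wt CD4 SP, and 6.67 in cKO CD8 SP and 7.27 in wt CD8 SP thymocytes. Ephb2 had 6.82, 6.86 and 6.58 in cKO DP, against 6.53, 6.26 and 6.68 in wt DP, and 6.59, 6.71 and 6.75 in cKO CD8 SP, against 6.69, 6.06 and 6.76 in wt CD8 SP thymocytes. Both pairs overlapped, and its mean difference over the populations was 0.41 ± 0.16 (limma adjusted p = 0.349). The value for Fzd3 was 0.51 ± 0.23 (limma adjusted p = 0.41). Unadjusted p-values under 0.05 belonged to these 3 genes, or 10.3%, against 11.8% of all probes. The genotype difference was not shown to vary between populations for any gene, with 0 of 29 past limma's F-test of the interaction, where 0% of all probes were, and 0 at an unadjusted p under 0.05 (background 4.49%). Its smallest unadjusted p-values were those of Bmp4 (0.0624), Fzd5 (0.0756) and Dkk1 (0.0825). Bmp4 had 5.04, 5.64 and 4.78 in cKO CD4 SP, against 4.39, 4.49 and 4.85 in wt CD4 SP, and 4.76, 4.96 and 5.45 in cKO CD8 SP, against 5.24, 5.70 and 5.43 in wt CD8 SP thymocytes. Its cKO mean was thus above the wt mean in DP and CD4 SP and under it in CD8 SP, with overlapping values throughout.

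The genotype intervals bound what was measured. The half-width of the 95% interval within a population ranged from 0.41 for Ctnnb1 to 1.18 or 1.19 for Tcf7l2, with a median of 0.76. For Ctnnb1 the intervals were -0.48 to 0.34 in DP, -0.40 to 0.42 in CD4 SP and -0.43 to 0.39 in CD8 SP thymocytes. Single-array values of Ctnnb1 were 9.98, 9.93 and 9.96 in cKO DP, against 10.12, 9.89 and 10.06 in wt DP. The 2 other tested probes of Ctnnb1 gave genotype differences between -0.21 and 0.06. In 17 genes in DP, and in 12 genes in each SP population, the whole interval lay within 1 log2 unit of 0.

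Bulk arrays of a sorted population cannot tell fewer cells that express a gene from less RNA per cell. Between populations of wt mice, 0 of 29 genes passed the test with their brightest probe. Of all tested probes, 6.03% passed in CD4 SP against DP, 8.36% in CD8 SP against DP and 3.42% in CD4 SP against CD8 SP. A dimmer Lrp5 probe passed in wt CD4 SP and in wt CD8 SP against wt DP. In cKO mice 1 of 29 genes, or 3.45%, passed in CD4 SP against DP (background 4.73%), 1 of 29 in CD8 SP against DP (background 6.93%) and 0 of 29 in CD4 SP against CD8 SP (background 3.92%). With only 29 genes 1 gene is 3.45%, so counts of 0 or 1 do not tell these shares apart from those of all probes. At an unadjusted p under 0.05, 2, 4 and 5 of 29 genes passed in these 3 wt comparisons (background 17.5%, 22.4% and 15.6%), and 2, 2 and 1 in the 3 cKO comparisons (background 14.5%, 17.8% and 14.7%). Groups without overlap were found for 8, 4 and 7 of 29 genes in wt (background 22.9%, 28.5% and 22.2%) and for 5, 2 and 2 in cKO (background 19.9%, 22.7% and 18.9%). The 2 comparisons with DP share the DP arrays of their genotype.

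Axin2 is shown array by array because it passed the test and is a commonly used readout of beta-catenin activity. It had 6.98, 6.19 and 7.22 in cKO CD4 SP, against 6.06, 4.75 and 4.77 in cKO DP thymocytes. All 3 CD4 SP values lay above all 3 DP values, and the difference was 1.60 ± 0.45 (limma adjusted p = 0.0494, and 0.0499 with the BeadChip as a block). It was 0.92, 1.44 and 2.45 on the 3 chips. Only 1 of 3 DP arrays detected Axin2 in cKO, and 1 of 3 in wt, against all 3 arrays of each SP group. It thus passed the filter through the SP arrays, in which it was high. The DP level lay mostly at background, so no fold is given. In wt mice Axin2 had 6.25, 5.16 and 6.05 in CD4 SP, against 5.18, 5.52 and 4.45 in DP. The wt groups overlapped, and the difference was 0.77 ± 0.45 (95% interval -0.18 to 1.71, limma adjusted p = 0.421).

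The Axin2 call in cKO lay at the threshold. It ended in 12 of 18 fits that left out 1 array, with adjusted p-values up to 0.195. These were wt DP 1 and 2, cKO DP 2 and 3, cKO CD4 SP 1 and 3, wt CD4 SP 1 and 3, cKO CD8 SP 1 and all 3 wt CD8 SP arrays, and over the 18 fits the difference stayed between 1.38 and 2.04. Without background correction the difference was 0.457, and with the authors' matrix values 0.446, both past the threshold. The call ended with no detection filter (0.0973), with only the arrays compared (0.105) and without the cKO arrays of number 3 (difference 1.18, adjusted p = 0.328). In an added comparison, chosen after seeing the data, that averages both genotypes, Axin2 was higher in CD4 SP than in DP by 1.19 ± 0.32 (6 arrays each, limma adjusted p = 0.02). That call ended without wt DP 3 (0.0544), cKO DP 2 (0.0541) or 3 (0.0567), wt CD4 SP 1 (0.054) or cKO CD4 SP 3 (0.0513), and without the 3 cKO arrays of number 3 together (0.0807). In CD8 SP thymocytes Axin2 had 5.75, 5.26 and 6.75 in cKO and 5.83, 6.08 and 5.49 in wt, and CD8 SP exceeded DP by 0.74 ± 0.32 over both genotypes (limma adjusted p = 0.137).

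Gsk3b passed the test in cKO CD8 SP against cKO DP thymocytes. It had 6.92, 5.87 and 7.23 in cKO CD8 SP, against 7.70, 7.91 and 7.92 in cKO DP thymocytes. The groups did not overlap, and Gsk3b was lower in CD8 SP by -1.17 ± 0.29, or 2.24-fold (limma adjusted p = 0.0203, and 0.0246 with the BeadChip as a block). The call ended without cKO CD8 SP 2 (difference -0.77, adjusted p = 0.107), cKO DP 2 (0.0634) or cKO DP 3 (0.0664). With median scaling the difference was -0.924 (adjusted p = 0.106), with the array median intensity as a covariate -0.959 (0.166), with only the arrays compared -1.17 (0.148) and without background correction -0.52, still past the threshold. In wt mice it had 7.10, 7.35 and 7.36 in CD8 SP, against 7.95, 8.51 and 8.04 in DP. The wt groups did not overlap either, and the difference was -0.90 ± 0.29, which missed the threshold (limma adjusted p = 0.0676). Over both genotypes Gsk3b was lower in CD8 SP than in DP by -1.03 ± 0.21 (6 arrays each, limma adjusted p = 0.00195), and it stayed past the threshold whichever 1 array was left out, but not with the array median as a covariate (-0.85, adjusted p = 0.0805). The interaction test gave an unadjusted p of 0.739 for Gsk3b and 0.331 for Axin2, so a difference between genotypes in these population changes was not shown for either gene.

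**Figure D3:**
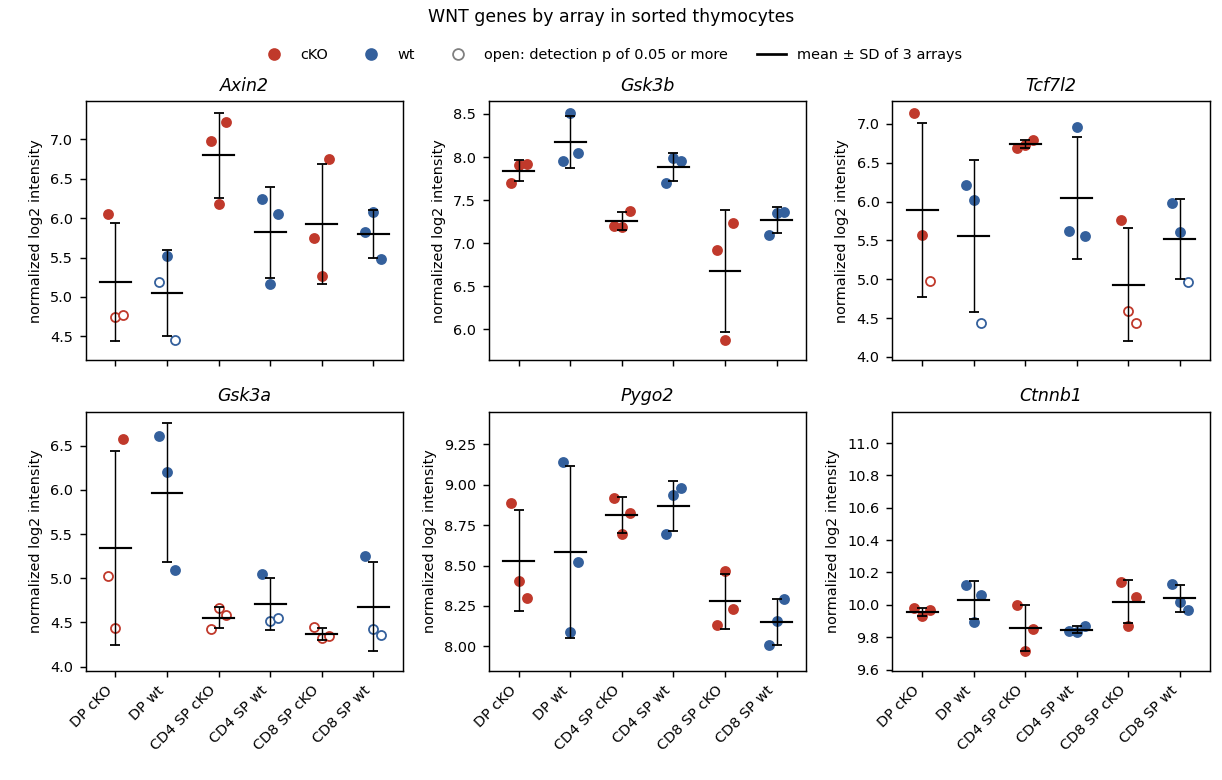
Normalized log2 intensity (vertical axis) on each of 3 arrays per group for Axin2, Gsk3b, Tcf7l2, Gsk3a, Pygo2 and Ctnnb1, with the mean and SD of the 3 arrays and open points where the detection p-value was 0.05 or more. Axin2 lies at 6.19 to 7.22 in cKO CD4 SP above 4.75 to 6.06 in cKO DP, Gsk3b at 5.87 to 7.23 in cKO CD8 SP below 7.70 to 7.92 in cKO DP, and Ctnnb1 between 9.72 and 10.14 throughout.

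The promoter windows of these 2 genes, 250 bases before to 50 bases after the gene's start, were read from RefSeq (GRCm38.p6) and searched for the TCF/LEF core CTTTGA on both strands. The Axin2 window lies on chr11:108920099-108920398, plus strand, and the Gsk3b window on chr16:38088751-38089050, plus strand. Capitals mark the core.
Axin2: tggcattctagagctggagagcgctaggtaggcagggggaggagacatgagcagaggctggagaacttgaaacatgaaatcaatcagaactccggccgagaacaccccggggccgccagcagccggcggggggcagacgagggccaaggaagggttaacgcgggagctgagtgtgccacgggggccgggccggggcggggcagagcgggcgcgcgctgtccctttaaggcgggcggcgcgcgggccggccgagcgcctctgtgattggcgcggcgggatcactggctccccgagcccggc
Gsk3b: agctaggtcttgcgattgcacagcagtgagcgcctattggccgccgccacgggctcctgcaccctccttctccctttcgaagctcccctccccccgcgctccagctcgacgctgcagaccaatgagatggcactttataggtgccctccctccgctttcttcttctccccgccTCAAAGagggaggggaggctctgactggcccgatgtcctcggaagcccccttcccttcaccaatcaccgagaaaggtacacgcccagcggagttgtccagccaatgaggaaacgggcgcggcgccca
The Axin2 window held no match, and the Gsk3b window held 1, read as TCAAAG at -77 from the gene's start. Of all 32851 windows 16% held the core, as did 7 of the 40 windows of the 30 listed WNT genes with an entry, or 17.5%. A match is a description of these letters only, and no factor binding was measured here.

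The paralogue Gsk3a was detected on 6 arrays, 4 of them DP, so it passed the filter largely through the population in which it was high. In the SP groups it had means of 4.55 in cKO and 4.70 in wt CD4 SP, and 4.37 in cKO and 4.68 in wt CD8 SP thymocytes, and no cKO SP array detected it. It had 5.02, 4.43 and 6.57 in cKO DP and 6.61, 6.20 and 5.10 in wt DP. The cKO DP values spread over more than 2 log2 units and overlapped those of the SP groups. In the added comparisons over both genotypes 2 of 29 genes, or 6.90%, passed in CD4 SP against DP (background 11.1%) and 2 in CD8 SP against DP (background 15.7%), and Gsk3a was the second gene in each. Since it was kept through DP and lay at background on 10 of 12 SP arrays, its differences of -1.03 ± 0.32 (limma adjusted p = 0.0468) and -1.13 ± 0.32 (limma adjusted p = 0.0214) describe detection in DP and measure no fold. The first call ended in 15 of 18 fits without 1 array, among them wt DP 1 (0.126) and cKO DP 3 (0.111), and with the BeadChip as a block (0.0565). The second ended without wt DP 1 or 2 or wt CD8 SP 2 or 3 (up to 0.0625). It also ended with only the arrays compared (0.0514), without the cKO arrays of number 3 (0.0841) and with the array median as a covariate, where the difference was -0.231 (adjusted p = 0.777).

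The other members of the destruction complex did not pass a test between populations. Csnk1a1, a casein kinase that primes beta-catenin, had group means between 6.95 and 7.56, and the scaffold gene Axin1 between 8.03 and 8.46. The scaffold gene Apc had 5.06, 4.41 and 6.24 in cKO CD4 SP, against 6.62, 6.72 and 6.14 in cKO DP thymocytes. These groups overlapped, and the difference was -1.26 ± 0.48 (limma adjusted p = 0.193). Dvl3, which relays the receptor signal to the complex, had means between 5.40 and 5.94.

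Among nuclear partners, Pygo2, which reads histone methylation for beta-catenin, was the gene that passed the test in CD4 SP against CD8 SP over both genotypes, 1 of 29 or 3.45% (background 9.36%). It had 8.92, 8.70 and 8.83 in cKO and 8.69, 8.94 and 8.98 in wt CD4 SP thymocytes, against 8.13, 8.47 and 8.23 in cKO and 8.01, 8.16 and 8.29 in wt CD8 SP thymocytes. All 6 CD4 SP values lay above all 6 CD8 SP values, by 0.63 ± 0.19 (limma adjusted p = 0.0418, 0.0487 with the BeadChip as a block). The differences were 0.54 ± 0.26 in cKO and 0.72 ± 0.26 in wt alone, and neither passed. The call of both genotypes ended in 13 of 18 fits without 1 array, with differences of 0.59 to 0.67 and adjusted p-values up to 0.0926. It also ended with median scaling (0.462, adjusted p = 0.246), with the array median as a covariate (0.0677) and without the cKO arrays of number 3 (0.128). With 1 array left out, the call stayed past the threshold only when that array was wt DP 1, wt DP 2 or a cKO DP array. Leaving out any CD4 SP or CD8 SP array ended it.

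Tcf7l2, a TCF factor, had 6.69, 6.72 and 6.79 in cKO CD4 SP, against 5.77, 4.59 and 4.44 in cKO CD8 SP thymocytes. The groups did not overlap, but 2 of the 3 CD8 SP arrays did not detect the probe. The difference of 1.81 ± 0.56 missed the threshold (limma adjusted p = 0.0904) and passed it with the BeadChip as a block (0.0377). In wt mice it had 5.62, 6.95 and 5.56 in CD4 SP, against 5.98, 5.61 and 4.97 in CD8 SP thymocytes. These overlapped, and the second tested probe of Tcf7l2 gave -0.15 ± 0.20 over both genotypes, against 1.17 ± 0.40 for the brightest probe (limma adjusted p = 0.0792, 0.0328 with the BeadChip as a block). Between cKO and wt CD4 SP thymocytes the mean of that second probe was higher in cKO, and the difference missed the threshold (limma adjusted p = 0.545). No wt CD4 SP array detected that probe, and with wt raised to the lowest detected values the estimate was 1.38-fold.

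Probes of a gene differed elsewhere as well. A second probe of Lrp5 was higher in SP than in DP thymocytes of wt mice. It had 6.05, 7.06 and 6.79 in wt CD4 SP and 6.67, 6.75 and 6.39 in wt CD8 SP thymocytes, against 5.90, 5.15 and 5.46 in wt DP thymocytes. Neither SP group overlapped with DP, with differences of 1.13 ± 0.32 for CD4 SP (limma adjusted p = 0.0445) and 1.10 ± 0.32 for CD8 SP (limma adjusted p = 0.042). In cKO mice the same probe gave -0.15 ± 0.32 and -0.31 ± 0.32, with 5.90, 6.94 and 6.64 in cKO DP thymocytes. Its difference between cKO and wt DP was 0.99 ± 0.32 (limma adjusted p = 0.398). The brightest Lrp5 probe gave 0.79 ± 0.38 in cKO and 0.76 ± 0.38 in wt for CD4 SP against DP, and neither passed. Over both genotypes that probe differed by 0.77 ± 0.27 without overlap (limma adjusted p = 0.0772), and the difference passed with the BeadChip as a block (0.0144). In CD8 SP against DP it differed by 0.62 ± 0.27 (limma adjusted p = 0.137), which also passed with the block (0.0369). The remaining 2 Lrp5 probes differed by -0.04 and -0.03.

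Dimmer probes of Fzd5 and Bcl9 also passed over both genotypes. That of Fzd5 was higher in CD8 SP than in DP by 1.00 ± 0.32 (limma adjusted p = 0.0427), and lower in CD4 SP than in CD8 SP by -1.35 ± 0.32 (limma adjusted p = 0.0109). It was detected on 5 of 6 CD8 SP arrays, against 1 of 6 CD4 SP and 2 of 6 DP arrays. The brightest Fzd5 probe gave 0.24 ± 0.24 and -0.22 ± 0.24. The dimmer probe of Bcl9 was higher in CD4 SP than in DP by 0.84 ± 0.24 (limma adjusted p = 0.0322), while the brightest gave 0.26 ± 0.25. Which transcripts each probe reads was not tested.

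Feedback genes other than Axin2 passed no test. Rnf43, a ligase gene that removes Frizzled receptors, was detected on 17 arrays with means between 6.06 and 6.80. Its relative Znrf3 and the Dishevelled antagonists Nkd1 and Nkd2 were detected on 4, 5 and 4 arrays. Nkd1 had means of 5.34 in cKO and 4.60 in wt CD4 SP thymocytes, and no wt SP array detected it. The secreted LRP antagonist gene Dkk1 had 4.64, 6.39 and 5.09 in wt CD4 SP, against 6.56, 6.53 and 6.60 in wt CD8 SP thymocytes. These did not overlap, and the difference was -1.19 ± 0.47 (limma adjusted p = 0.218), against 0.32 in cKO.

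**Figure D4:**
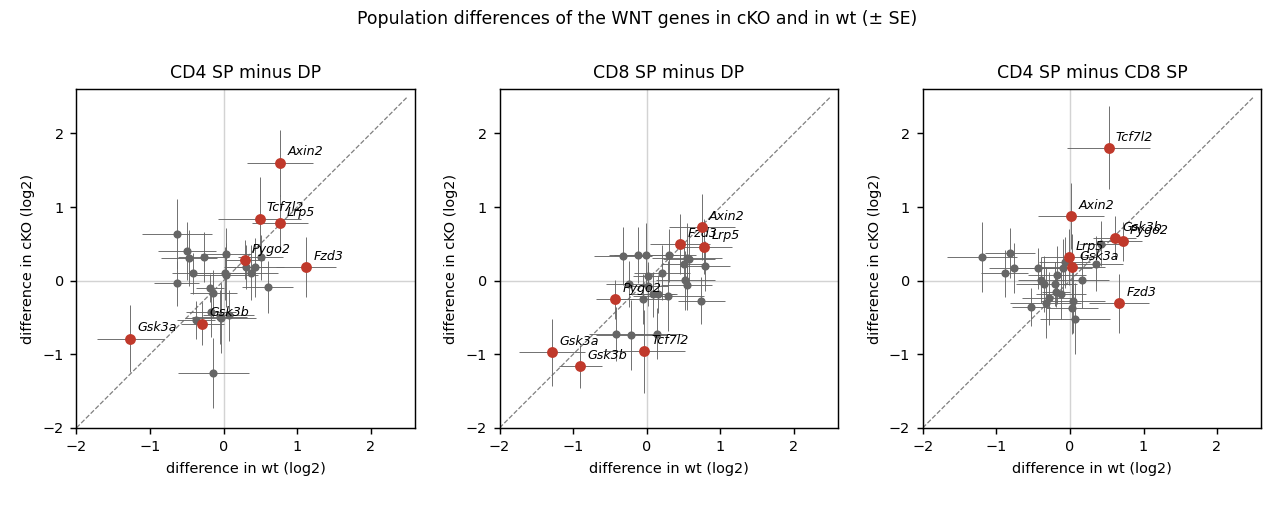
Population difference in cKO (vertical axis) against that in wt (horizontal axis), both in log2 intensity with SE bars, for the 29 WNT genes in CD4 SP minus DP, CD8 SP minus DP and CD4 SP minus CD8 SP. Gsk3b lies below 0 in both genotypes in CD8 SP minus DP, at -1.17 in cKO and -0.90 in wt, and Axin2 lies at 1.60 in cKO and 0.77 in wt in CD4 SP minus DP.

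Population differences in cKO and in wt, which share no arrays, were set side by side over the 29 genes. Pearson's r was 0.455 in CD4 SP against DP, 0.66 in CD8 SP against DP and 0.263 in CD4 SP against CD8 SP, compared with 0.671, 0.644 and 0.549 over all tested probes. The sign was the same in 22, 19 and 15 of 29 genes, or 75.9%, 65.5% and 51.7%, against 64.8%, 66.4% and 62.2% of all tested probes. These values are across genes, which are not independent replicates, and every gene's values come from the same 18 arrays.

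Beyond the members, 99 further pathway genes were listed, of which 73 were measured. None passed the test between cKO and wt. In wt mice 6 of 73 passed in CD4 SP against DP (2 higher, 4 lower, background 2.74% and 3.29%), or 8.22%, 8 in CD8 SP against DP (2 higher, 6 lower, background 2.88% and 5.48%), or 11%, and 1 in CD4 SP against CD8 SP (1 higher, 0 lower, background 1.77% and 1.65%), or 1.37%. In cKO mice the counts were 5 (2 higher, 3 lower, background 2.09% and 2.64%), 7 (1 higher, 6 lower, background 2.74% and 4.19%) and 4 (3 higher, 1 lower, background 1.79% and 2.14%).

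The 8 further genes with the smallest p in wt mice spanned receptors, kinases and nuclear factors. Kremen1, a Dickkopf receptor gene, was lower in wt CD8 SP than in wt DP thymocytes by at least 4.15-fold (limma adjusted p = 0.00026) and it passed in wt CD4 SP against wt DP (limma adjusted p = 0.000465), where 1 of 3 CD4 SP arrays detected it. In cKO it was lower by at least 2.46-fold in CD4 SP and at least 2.39-fold in CD8 SP than in DP. These folds bound only the estimated ratio and leave out the spread between arrays. Kremen1 was detected on 1 of the 12 SP arrays, against all 6 DP arrays, through which it passed the filter. It had 6.67, 5.58 and 6.30 in cKO DP and 7.53, 6.89 and 6.47 in wt DP. The casein kinase gene Csnk1e was lower in CD4 SP than in DP by -2.27 ± 0.45 in cKO and -1.92 ± 0.45 in wt, and lower in CD8 SP than in DP by -2.81 ± 0.45 in cKO and -1.85 ± 0.45 in wt. All 4 of these Csnk1e differences passed the test, as did both of Kremen1 in cKO. Csnk1e was detected on 1 of 3 cKO and 2 of 3 wt CD8 SP arrays.

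Lef1, a TCF/LEF factor gene, was higher in CD4 SP than in DP by 1.43 ± 0.20 in cKO (limma adjusted p = 0.000244) and 1.10 ± 0.20 in wt (limma adjusted p = 0.00235). In CD8 SP against DP its brightest probe gave 0.59 in cKO and 0.41 in wt and did not pass, while a dimmer Lef1 probe was lower in CD8 SP by -1.29 in cKO and -1.02 in wt, and both passed. Myc, a target of beta-catenin in other tissues, was higher in CD8 SP than in DP by at least 1.95-fold in cKO (limma adjusted p = 0.00612) and at least 2.45-fold in wt (0.0021). Hbp1, a repressor gene of TCF-driven transcription, was lower in CD8 SP than in DP by -1.04 ± 0.21 in cKO (limma adjusted p = 0.005) and -1.14 ± 0.21 in wt (0.00259). These 3 genes passed in both genotypes. The Myc probe was detected on 7 arrays, none of them DP. It thus passed the filter through the SP arrays, in which it was high. Its DP level lay at background, so both Myc folds only bound the estimated ratio.

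Bcl9l, a paralogue of Bcl9, was higher than in DP in wt CD4 SP (1.66 ± 0.31) and wt CD8 SP (1.93 ± 0.31), with limma adjusted p-values of 0.00243 and 0.000815. In cKO the Bcl9l differences were 0.53 and 0.81 and did not pass, and cKO DP held 7.70, 8.18 and 7.96, against 7.16, 7.14 and 6.93 in wt DP. The second Bcl9l probe gave 0.58 and 0.46 in wt. Prickle1, a planar polarity gene, was lower in wt CD4 SP than in wt DP by -1.58 ± 0.34 (limma adjusted p = 0.00723, detected on 1 of 3 wt CD4 SP arrays), against -0.58 ± 0.34 in cKO, and its second probe gave -0.43 in wt and 0.47 in cKO. Csnk1g1, another casein kinase gene, was lower in wt CD8 SP than in wt DP by -1.02 ± 0.26 (limma adjusted p = 0.0209), against -0.37 ± 0.26 in cKO. Whether these changes differ between genotypes was tested only by the interaction test, in which 0 of the 73 genes passed.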

How the data were processed

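RNA of the 18 arrays was labelled with biotin and hybridized to Illumina mouse BeadChips, per the labels. The deposited bead file gives, for each probe on each array, a linear intensity that shows no normalization between arrays, and a deposited detection p-value. The authors' series matrix holds normalized intensities and entered only as an alternative. Scanner software, the normalization method and the source of the detection p-values are not given in the sources used here.

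The neqc function of limma (version 3.58.1, run in R version 4.3.3, offset 16) corrected the background from the detection p-values, quantile normalized the arrays and took log2 of the deposited intensities. Of 46237 probes, 35784 had 1 gene symbol in the array annotation, and 26676 were detected on at least 3 arrays and tested. A gene stands for its tested probe with the highest mean. One model with a mean per group (12 residual degrees of freedom) gave 11 comparisons, and limma's moderated tests were adjusted over all tested probes. Where no array of a group detected a probe, its values there were raised to the lowest detected value of each array. The fold then bounds the estimated ratio and does not include the spread between arrays. Bead intensities carry no read depth, so the number of arrays limits the precision.

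Per the file headers, each of 3 BeadChips carried all 6 groups and has 1 label number. Each group held the same position on all 3 chips, A to C for the wt groups and D to F for the cKO groups. Position on the chip thus cannot be told apart from group, and the BeadChip block does not remove it. Over 18 pairs of arrays that share number and genotype, residual correlations had a median of 0.089 (-0.0415 to 0.314). The 90 pairs with another number and another group had a median of -0.0156 (-0.258 to 0.147). The number entered as an alternative block. Other alternatives changed background correction, normalization, filters, variance model, probe choice and arrays. The script was tested on simulated data. Members, gene lists and tests were chosen with earlier results of these data known. Members past the threshold in any of the 11 comparisons, and the 3 members with the smallest p in each genotype comparison, are given by array, and up to 8 further pathway genes past it in wt with the smallest p are named. The 3 comparisons over both genotypes and the array values of Tcf7l2, Gsk3a, Pygo2, Apc, Dkk1, Kremen1, Bcl9l and the second Lrp5 probe were added after their values were seen. Figures were drawn with matplotlib.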

Additional observations from a re-analysis of the deposited data

How the results depend on the processing

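In each of the 5 genotype tests the count of WNT genes past the threshold stayed at 0 under all alternatives (30 for each population, 29 for their mean and for the interaction). None of the 23 gene differences recomputed, all of brightest probes of members, changed direction under any of its alternatives. Apc, Dkk1, the dimmer probes and the further pathway genes were not recomputed. Counts between populations moved. In wt CD4 SP against DP the count became 1 with the array median intensity as a covariate. In wt CD8 SP against DP it became 1 without background correction, with the series matrix values, with a random block for each label number within a genotype, and without the 3 cKO arrays of number 3, and 2 with trend and robust variance. In wt CD4 SP against CD8 SP it became 1 without background correction, with the matrix and with trend and robust variance. In cKO CD4 SP against DP (1 gene) it became 0 with no detection filter, with only the arrays compared, and without the cKO arrays of number 3. In cKO CD8 SP against DP (1 gene) it became 0 with median scaling, with the covariate and with only the arrays compared. In cKO CD4 SP against CD8 SP it became 1 without background correction, with the matrix, with the replicate block and with trend and robust variance.

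Over both genotypes, the count in CD4 SP against DP (2) became 1 with median scaling, without background correction, with no detection filter and with the covariate, and 0 without the cKO arrays of number 3. Its highest count was 3, under an alternative other than leaving out 1 array. In CD8 SP against DP (2) it became 0 with the covariate, 1 with only the arrays compared and 3 with the replicate block, which added Lrp5. In CD4 SP against CD8 SP (1) it became 0 with median scaling, with the covariate and without the cKO arrays of number 3, 2 with either block, with the mean of a gene's probes and with only the arrays compared, and 3 without background correction, with the matrix and with trend and robust variance. The cause of these moves was not tested.

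With 1 array left out, the counts ranged from 0 to 1 in wt CD4 SP against DP, 0 to 1 in wt CD8 SP against DP, 0 to 0 in wt CD4 SP against CD8 SP, 0 to 1 in cKO CD4 SP against DP, 0 to 2 in cKO CD8 SP against DP, 0 to 0 in cKO CD4 SP against CD8 SP, and, over both genotypes, 0 to 2, 1 to 4 and 0 to 2. Across all alternatives the adjusted p ranged from 0.0136 to 0.328 for Axin2 in cKO CD4 SP against DP, from 0.00234 to 0.166 for Gsk3b in cKO CD8 SP against DP, and from 1.43e-05 to 0.0805 for Gsk3b over both genotypes, where it missed the threshold only with the covariate.

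The replicate block (BeadChip) changed 5 calls of the genes' brightest probes: Tcf7l2 passed with it in CD4 SP against CD8 SP, in cKO and over both genotypes, Lrp5 passed over both genotypes in both SP populations against DP, and Gsk3a in CD4 SP against DP no longer passed. A dimmer Fzd5 probe in CD8 SP against DP no longer passed either (0.0598). The residual check did not settle whether the label numbers pair samples of a genotype. Without background correction and with the matrix, log2 differences were about as low as 0.446 for Axin2 and -0.505 for Gsk3b in cKO, and both still passed. With 3 arrays a group and values near background, differences of under about 1 log2 unit were often within the intervals.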
